A study of Mus musculus with 6 samples.

Results

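Ephrins and their Eph receptors were examined in the endothelium of lymphatic vessels (lymphatic endothelial cells, LECs), captured from tumours and from healthy skin of mice. The members were chosen by name: every probe set (a group of probes read as 1 signal) whose platform annotation gives a single symbol out of 10 listed genes, namely the ligands Efna1, Efna5, Efnb1 and Efnb2 and the receptors Epha2, Epha4, Ephb1, Ephb2, Ephb3 and Ephb4. This gave 20 of 45037 probe sets, for 9 of 18193 genes; no probe set was annotated to Ephb2 alone, and Ephb2 was not analysed here. The 6 mouse Affymetrix arrays comprised 3 samples of normal LECs, captured in the healthy mammary skin that balb-c/nude mice provided, and 3 samples of tumour-associated LECs from MDA-MB-435 xenografts. Nude mice lack a thymus and so most T cells, but keep macrophages. MDA-MB-435 is a human line once taken for breast cancer and now held to be of melanoma origin; it had been injected subcutaneously, and tumours were excised after 8 weeks. The label of the tumour samples names neither the host strain nor the site, and no label gives an age. In both groups LECs were found on tissue sections with a short staining for LYVE-1, which binds hyaluronan and which some macrophages also carry, cut out by laser capture, and their RNA was amplified in 1 round of Ribo-SPIA. Whether each biological replicate was a separate animal is not said in the labels. The p-values below set differences against the spread between these samples, which may not be the spread between animals.

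Eph receptors form the largest family of receptor tyrosine kinases, and their ligands, the ephrins, sit on the surface of neighbouring cells, so that signals pass by contact and in both directions. Ephrin-A ligands are held in the membrane by a lipid anchor and bind mainly EphA receptors, whereas ephrin-B ligands span the membrane and bind mainly EphB receptors. In blood vessels ephrin-B2 marks arteries and EphB4 marks veins, and in lymphatic vessels ephrin-B2 and EphB4 act in sprouting, remodelling and the formation of valves. Ephrin-B2 also takes part in the internalisation of VEGFR-3, the main growth factor receptor of LECs.

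The results turn on Efnb2, Ephb4 and Ephb1, so the sequence before the start of each gene is shown to identify the loci. The arrays measured no property of these promoters. Each line holds the 250 bases before the RefSeq start, 5′ to 3′ on the strand of the gene (build GRCm38.p6), and capitals mark the CCAAT box, read as CCAAT or as ATTGG on the other strand, with no other motif searched.
Efnb2, chr8:8661243-8661492, minus strand: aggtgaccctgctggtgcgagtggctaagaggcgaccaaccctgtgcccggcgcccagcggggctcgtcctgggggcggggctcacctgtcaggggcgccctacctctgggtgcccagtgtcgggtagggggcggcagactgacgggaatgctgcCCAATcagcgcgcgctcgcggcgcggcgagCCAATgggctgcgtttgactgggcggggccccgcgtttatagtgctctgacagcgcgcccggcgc
Ephb4, chr5:137349859-137350108, plus strand: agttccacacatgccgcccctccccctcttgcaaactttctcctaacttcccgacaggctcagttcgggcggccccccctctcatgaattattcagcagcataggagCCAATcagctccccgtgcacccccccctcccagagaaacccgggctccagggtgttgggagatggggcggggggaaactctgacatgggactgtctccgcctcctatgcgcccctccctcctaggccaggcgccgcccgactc
Ephb1, chr9:102354694-102354943, minus strand: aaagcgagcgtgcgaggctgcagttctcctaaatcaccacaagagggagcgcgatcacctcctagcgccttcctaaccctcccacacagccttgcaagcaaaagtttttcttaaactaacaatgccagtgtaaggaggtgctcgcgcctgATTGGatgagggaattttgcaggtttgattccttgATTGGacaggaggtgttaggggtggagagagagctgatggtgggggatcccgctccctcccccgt
The box occurs 2 times before Efnb2, 1 time before Ephb4 and 2 times before Ephb1, and 33.8% of all 32851 promoter windows of this length hold at least 1. The Efnb2 window has 27 CpG dinucleotides and a GC content of 72%, against 12 and 64% for Ephb4, 10 and 54% for Ephb1, and medians of 6 and 52.4% over all windows. All 10 members had a window in the RefSeq table, and 6 of them held the box in one. A match is a description of the letters and not an established site.

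Tumour-associated LEC samples had more signal for the receptors Ephb4 and Ephb1 than the healthy-skin samples. Mean signal was lower on 3 of the 4 probe sets of the ligand Efnb2, with an unadjusted limma p under 0.05 on 1 of them. Ephb4 was 2.76-fold higher (log2 difference 1.47, standard error 0.43), and the Efnb2 probe set 1419638_at was 6.69-fold lower (log2 difference -2.74, standard error 0.29). Ephb1 was not above background in healthy skin, where it has only a bound. Its tumour mean was 2.29-fold above the mean background of the healthy arrays, and tumour array 3 was itself below background. No member passed limma's test over all probe sets at an adjusted p under 0.05, at which 0.00444% of all probe sets passed; at an unadjusted p under 0.05 there were 3 of 20 member probe sets, 2 higher and 1 lower, against 6.36% of all probe sets, 2.83% higher and 3.53% lower. The values of the 3 tumour and the 3 healthy-skin arrays did not overlap for 4 of 20 member probe sets, 2 higher and 2 lower, against 11.1% of all probe sets, 6.22% higher and 4.91% lower. The median log2 difference was 0.10 over the member probe sets and 0.06 over all probe sets, with 12 member probe sets above 0 and 8 below.

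Signals are given on the log2 scale, and a value was called above background where it exceeded, on its own array, the 95th percentile of the signals of 27 control probe sets for bacterial transcripts, taken to be absent, a level between 2.96 and 3.91. Of the 20 member probe sets, 10 were above background on all 6 arrays, 8 on some and 2 on none, and 7 of the 9 measured genes had a probe set above background throughout. Between 39.6% and 56% of all probe sets were above background on an array, and array medians lay between 9.49 and 10.93 on the linear scale. Probe sets differ in how strongly they bind, so levels of different genes are not compared; within a gene, the probe set with the highest mean is called the brightest and only stands for the gene.

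**Figure D1:**
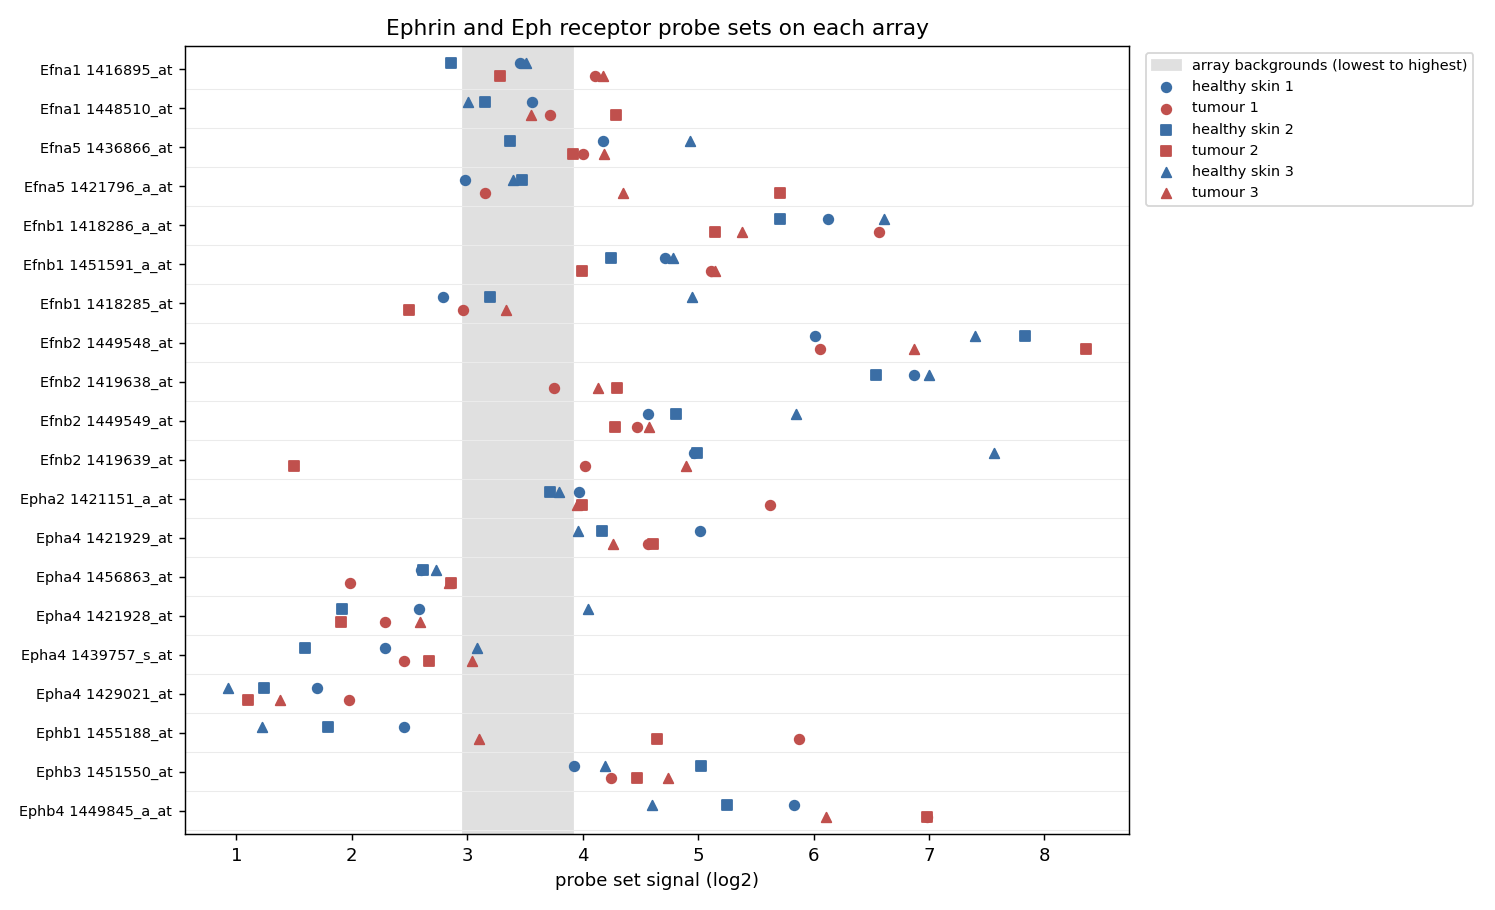
Signal (log2, horizontal axis) of the 20 member probe sets (rows) on each array. Blue is healthy skin and red is tumour, the symbol gives the replicate, and the grey band spans the array backgrounds from 2.96 to 3.91. The groups are apart for Efnb2 1419638_at and 1419639_at, Ephb1 and Ephb4.

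Efnb2 encodes ephrin-B2, the transmembrane ligand of EphB4, and its 4 probe sets, all designed on the same mRNA record, did not give the same picture. On 1419638_at the healthy-skin arrays 1, 2 and 3 had 6.87, 6.55 and 6.999, and the tumour arrays 1, 2 and 3 had 3.75, 4.30 and 4.14. Every tumour value was therefore below every healthy value by more than the spread within either group (6.81 ± 0.23 against 4.06 ± 0.28, SD, n = 3 arrays each), and every array was above its background. The log2 difference of -2.74 had a 95% interval from -3.43 to -2.05, an unadjusted limma p of 3.656e-05, the 21st smallest of all probe sets, and an adjusted p of 0.0784. With limma's array weights, which count less coherent arrays less, the adjusted p was 0.0478, and over the alternatives it ranged from 0.0478 to 0.386.

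The second Efnb2 probe set whose groups did not overlap was 1419639_at. Healthy-skin arrays 1, 2 and 3 had 4.97, 4.99 and 7.57, while tumour arrays 1, 2 and 3 had 4.02, 1.499 and 4.90. Healthy array 3 stood high and tumour array 2 low and below its background, and the healthy minimum exceeded the tumour maximum by little. The log2 difference was -2.37 with a standard error of 1.05 (limma unadjusted p = 0.0597, adjusted p = 0.803). Without healthy replicate 3 the difference was -1.51 and without tumour replicate 2 it was -1.38, and with a pseudocount of 16, which damps low signals, it was -1.35. It was -3.08 without tumour replicate 3 (limma unadjusted p = 0.0329), and the unadjusted limma p was 0.0474 with trend and robust options.

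The brightest Efnb2 probe set, 1449548_at, did not separate the groups. It had 6.01, 7.83 and 7.40 in healthy skin and 6.06, 8.36 and 6.87 in tumours, so that array 1 was lowest and array 2 highest in each group. The log2 difference was 0.01 (95% interval -1.67 to 1.70, limma adjusted p = 0.999), an interval that does not meet that of 1419638_at. The remaining probe set, 1449549_at, had 4.56, 4.81 and 5.85 in healthy skin against 4.47, 4.28 and 4.58 in tumours (log2 difference -0.63, standard error 0.39, limma adjusted p = 0.868). Its groups overlapped in a single array each, tumour array 3 and healthy array 1. Averaged over its 4 probe sets, Efnb2 had a log2 difference of -1.43 (limma unadjusted p = 0.00656, adjusted p = 0.403). The differences between the 4 probe sets were not tested.

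**Figure D2:**
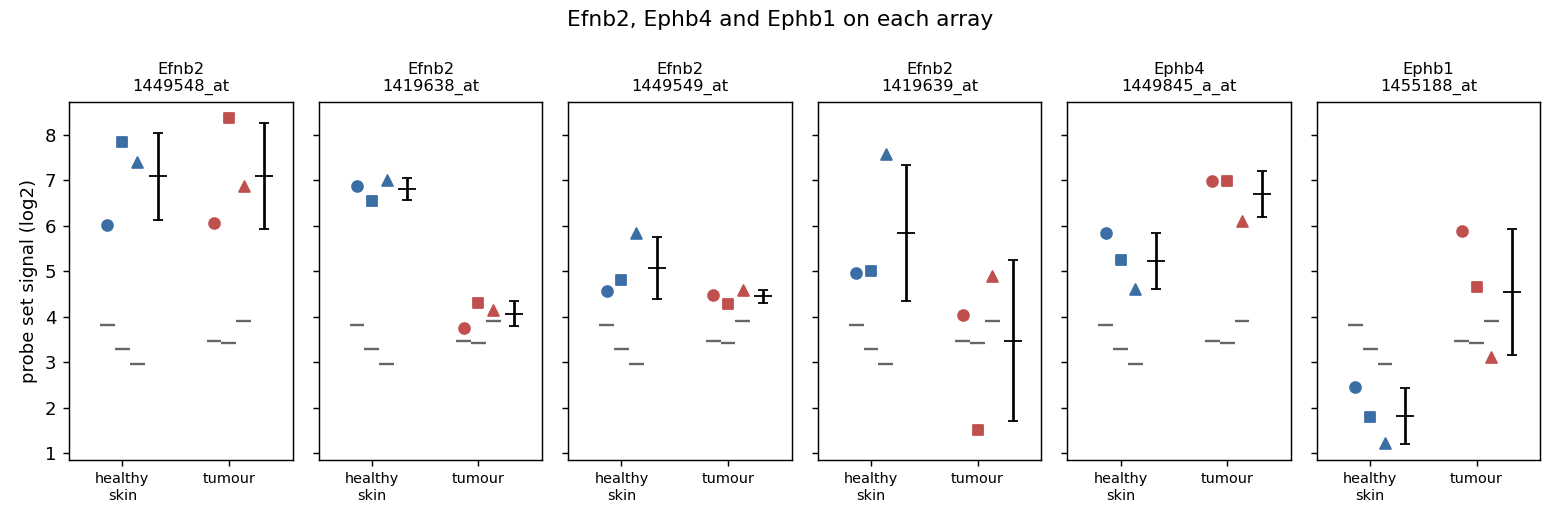
Signal (log2, vertical axis) of the 4 Efnb2 probe sets and of the single probe sets of Ephb4 and Ephb1 in healthy skin (blue) and tumour (red), with the symbol giving the replicate. Short grey lines are the array backgrounds, and black bars are the mean ± SD of 3 arrays. Efnb2 1419638_at has group means of 6.81 and 4.06, and 1449548_at has 7.08 and 7.10.

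Efnb1 encodes ephrin-B1, a further transmembrane ligand, and none of its 3 probe sets separated the groups. The brightest, 1418286_a_at, had 6.13, 5.71 and 6.61 in healthy skin and 6.57, 5.15 and 5.38 in tumours (log2 difference -0.45, 95% interval -1.54 to 0.64, limma adjusted p = 0.899). Its second probe set above background on all arrays, 1451591_a_at, differed by 0.17. The third, 1418285_at, was above background on healthy array 3 only, with 4.95, and on no tumour array. The interval of the brightest probe set still includes changes of more than a log2 unit in the lower direction.

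The ephrin-A ligands are anchored by lipid, and of these Efna1 was near background. Efna1, an inflammation-induced ligand of EphA2 in endothelium, had 3.45, 2.86 and 3.51 in healthy skin and 4.11, 3.28 and 4.18 in tumours on 1416895_at. Its other probe set, 1448510_at, had 3.56, 3.15 and 3.01 against 3.72, 4.29 and 3.55. Both probe sets had higher means in tumours, by 0.58 and 0.62, with overlapping groups and limma adjusted p of 0.868 and 0.846. Each was above background on 1 healthy-skin array and on 2 tumour arrays. Efna5, a ligand best known from axon guidance, had 4.18, 3.37 and 4.93 in healthy skin and 3.999, 3.92 and 4.19 in tumours on 1436866_at (log2 difference -0.12). On its probe set 1421796_a_at it had 2.98, 3.48 and 3.39 against 3.15, 5.71 and 4.35 (log2 difference 1.12, limma adjusted p = 0.86). There tumour arrays 2 and 3 lay above all healthy values and tumour array 1 among them, and the difference was 0.47 without tumour replicate 2 and 1.74 without tumour replicate 1 (limma unadjusted p = 0.345 and 0.0132).

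Ephb4 encodes EphB4, the receptor of ephrin-B2 on veins and lymphatic vessels. It had 5.83, 5.25 and 4.598 on healthy-skin arrays 1, 2 and 3 and 6.98, 6.98 and 6.11 on tumour arrays 1, 2 and 3. All tumour values were above all healthy ones, and every array was above background. The group values were 5.23 ± 0.61 and 6.69 ± 0.51 (SD, n = 3 arrays each), and the log2 difference of 1.47 had a 95% interval from 0.45 to 2.48. The limma unadjusted p was 0.0113 and the adjusted p was 0.638, and over the alternatives the adjusted p ranged from 0.236 to 0.998 with differences between 1.15 and 1.77.

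Ephb1 encodes EphB1, a receptor of ephrin-B ligands that has been linked to the assembly of capillaries. On healthy-skin arrays 1, 2 and 3 it had 2.45, 1.80 and 1.22, none of them above background. The tumour arrays 1, 2 and 3 had 5.88, 4.65 and 3.11, the first 2 above background and the third below it. All tumour values exceeded all healthy ones, but the tumour values ranged widely (4.54 ± 1.39 against 1.82 ± 0.61, SD, n = 3 arrays each). The bound of 2.29-fold sets the tumour mean against the mean background of the healthy arrays, 3.35. It is not a strict lower limit, because the tumour mean includes array 3 at its measured value. With 1 array left out, an alternative added after seeing the data, the bound was lowest without tumour replicate 1 (1.44-fold) and highest without tumour replicate 3 (3.76-fold). The limma fit on the measured values gave a log2 difference of 2.72 with a standard error of 0.71, an unadjusted p of 0.00694 and an adjusted p of 0.579. Without tumour replicate 1 the difference was 2.05, and without tumour replicate 3 it was 3.44; with a pseudocount of 16 it was 1.10.

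Ephb3, an EphB receptor best known from the intestinal epithelium, had 3.93, 5.02 and 4.20 in healthy skin and 4.25, 4.47 and 4.74 in tumours. The tumour values lay within the range of the healthy ones, and the log2 difference was 0.11 (95% interval -0.76 to 0.98, limma adjusted p = 0.976).

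Of the EphA receptors, Epha2, a receptor of ephrin-A1 with roles in vessel growth and in epithelium, had 3.97, 3.71 and 3.80 in healthy skin and 5.62, 3.996 and 3.95 in tumours. Its mean difference of 0.69 (limma adjusted p = 0.87) rested on tumour array 1, without which it was 0.15. Epha4, which binds both classes of ephrin, has 5 probe sets, of which 1421929_at was above background throughout and 2 were on no array. That probe set had 5.01, 4.17 and 3.96 in healthy skin and 4.57, 4.61 and 4.26 in tumours, so the groups overlapped (log2 difference 0.10, 95% interval -0.74 to 0.94, limma adjusted p = 0.976). The other Epha4 probe sets had differences between -0.58 and 0.40.

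**Figure D3:**
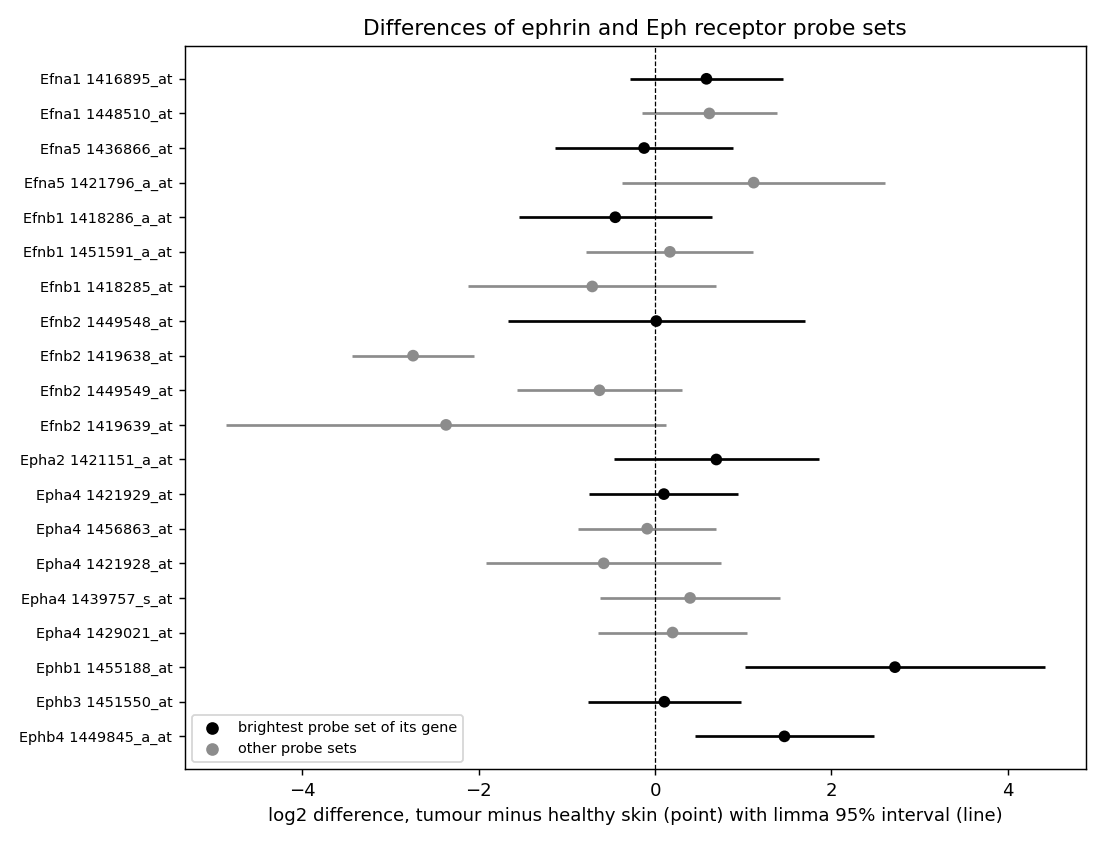
Log2 difference between tumour and healthy skin (points) with limma's 95% interval (lines) for each member probe set; black marks the brightest probe set of a gene and grey the others. The interval leaves out 0 for 3 of 20, namely Efnb2 1419638_at (-2.74), Ephb1 (2.72) and Ephb4 (1.47).

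By the 9 probe sets that stand for the genes, 7 members had a higher and 2 a lower mean in tumours, against 57.3% of all genes with a higher mean. Efnb2 counted as higher by 0.01, though 3 of its 4 probe sets had a lower mean. The 2 members with an unadjusted limma p under 0.05 were both EphB receptors. Over all genes 7.5% had such a p, and tumour and healthy values were fully apart in 11.9%. For Ephb4 the genes with the most similar pattern over the 6 arrays, among 7793 genes above background on all of them, were Cdh5 (r = 0.99), the gene of the endothelial cadherin of adherens junctions, Galc (r = 0.98), which encodes the lysosomal enzyme galactosylceramidase, and Psmc3ip (r = 0.979). Over so few arrays 17 genes had an r above 0.95 with Ephb4, and these correlations describe the arrays only. For Efnb2 on its brightest probe set they were Rps9 (r = 0.992), Ubfd1 (r = 0.988) and Plp2 (r = 0.971). None of these Efnb2 neighbours had a log2 difference beyond 0.21 in size.

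Most probe sets of the other ephrins and Eph receptors were above background on fewer than 3 arrays. Of these 25 probe sets, 6 were above background on at least 3 arrays, and they belonged to Efna2, Efna3, Epha1, Epha3 and Epha10. Efna2, Efna3 and Epha1 each had a probe set above background on all 6 arrays. The log2 differences of the 6 probe sets ran from -0.12 to 0.74, and their smallest unadjusted limma p was 0.256. By 1 probe set per gene, 9 of 12 had a higher and 3 a lower mean in tumours, against 57.3% of all genes with a higher mean.

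Genes that act downstream of ephrins and Eph receptors, or that cut them, were examined together with those 12 as a list of 59, of which 58 were measured. None passed the limma test over all probe sets (against 0.0055% of all genes). At an unadjusted p under 0.05 there were 5 higher and 4 lower, and the groups did not overlap for 11 of 58, against 7.5% and 11.9% of all genes. The median log2 difference of the list was 0.20 and that of all genes 0.08. Among the adaptors and PDZ proteins, Dab2, an endocytic adaptor that takes part with ephrin-B2 in the uptake of VEGF receptors, had 5.28, 6.54 and 6.41 in healthy skin and 8.48, 9.63 and 9.14 in tumours. The log2 difference of 3.01 had a limma adjusted p of 0.247, and the other 3 Dab2 probe sets differed by 0.52 to 0.70. Afdn, the junction scaffold afadin that can bind the tail of Eph receptors, had 6.30, 5.44 and 6.67 against 3.78, 4.59 and 5.21 (log2 difference -1.61, limma adjusted p = 0.644), and -0.06 on its other probe set.

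Kinases and phosphatases of the pathway had differences in both directions. Yes1, a Src-family kinase, had a log2 difference of 2.07 (limma adjusted p = 0.702), and its other 3 probe sets lay between -0.27 and 0.42. Ptpn11, the phosphatase SHP2, differed by -1.34 (limma adjusted p = 0.517), with 6.67, 6.97 and 6.63 in healthy skin and 5.67, 5.61 and 4.96 in tumours, and its other probe sets by 0.45 and -0.12. Ptpn13, a phosphatase that binds ephrin-B tails through a PDZ domain, differed by -1.17, and Tiam1, an exchange factor for Rac, by -1.58 (limma adjusted p = 0.699 and 0.715). On other probe sets Ptpn13 had -0.15 and Tiam1 -1.45 and 0.36. In tumours the Tiam1 probe set with 0.36 had a higher mean than the one with -1.58 (5.06 against 4.21). The latter therefore stands for Tiam1 only through its healthy-skin values. Of the 4 measured proteases that cut ephrins or Ephs, Rhbdl2 was above background on no array, and Adam17 and Mmp2 had log2 differences of 0.46 and 0.77 (limma adjusted p = 0.936 and 0.944). Adam10, a sheddase of ephrins, had 5.97, 5.999 and 6.91 against 7.37, 7.71 and 8.39 (log2 difference 1.52, limma adjusted p = 0.583), and 2.62, 0.34 and -0.15 on its other probe sets. Grip1 and Grb2, both adaptors, had log2 differences of 0.68 and 1.17 (limma adjusted p = 0.778 and 0.779), and 0.20 and 0.71 on their other probe sets.

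**Figure D4:**
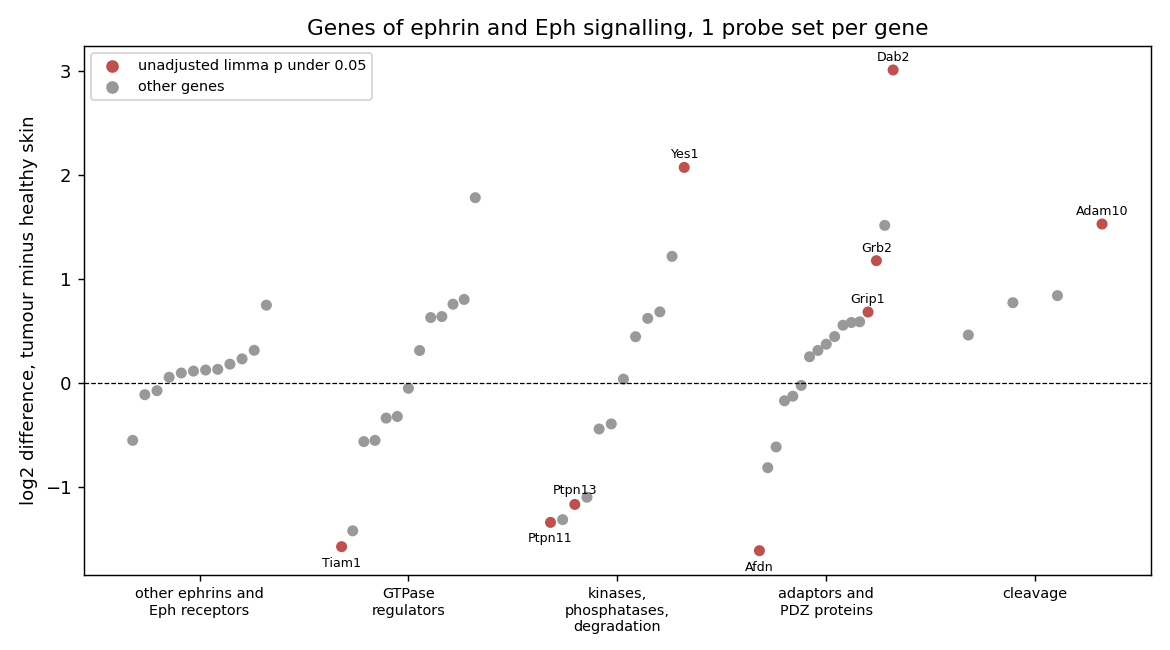
Log2 difference between tumour and healthy skin (vertical axis) of 58 genes of ephrin and Eph signalling, 1 probe set per gene, ordered by value within each list (horizontal axis). Red marks the 9 genes with an unadjusted limma p under 0.05, from Dab2 at 3.01 to Afdn at -1.61.

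Signals of the cell type marker lists differed between the groups, some in the same direction as these results. The mean log2 signal of 13 pan-endothelial markers was 4.59, 4.51 and 4.59 in healthy skin and 5.95, 5.73 and 5.73 in tumours, so it was higher on every tumour array, as Ephb4 was. All 13 had higher means in tumours, and their summed linear signal ran from 427 to 478 in healthy skin and from 1045 to 1194 in tumours. Kdr was above background on no healthy-skin array and on 2 tumour arrays. The 11 measured lymphatic markers had summed signals of 733 to 1405 and 2558 to 2822, with 9 of 11 higher in tumours. Foxc2 was above background on 1 healthy-skin array and on no tumour array. Prox1, the transcription factor of lymphatic fate, and the stained marker Lyve1 differed by 0.95 and 3.70, and Pecam1 by 0.78 (limma adjusted p = 0.87, 0.626 and 0.873). On healthy-skin array 1 Lyve1 was not above background (3.21, where the background was 3.81), whereas arrays 2 and 3 had 7.58 and 6.81. Without healthy replicate 1, left out after seeing the data, its difference was 2.37. The part of these markers in the Ephb4 and Ephb1 differences was not tested.

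Keratinocyte and hair follicle markers were lower on every tumour array, as Efnb2 1419638_at was. Their mean was 7.26, 7.46 and 7.93 in healthy skin and 5.82, 5.44 and 4.32 in tumours. In tumours 14 of 15 were lower, with summed signals of 5736 to 8756 in healthy skin against 451.5 to 3395. Dsg1a was above background on 1 healthy-skin array and on no tumour array. Krt10, a keratin of the upper epidermis, differed by -4.91 (limma adjusted p = 0.22). Their part in the Efnb2 difference was not tested. The 12 blood-vessel markers, the compartment in which ephrin-B2 marks arteries, had a median difference of 0.08 with 6 higher and 6 lower. Their summed signals ran from 363 to 420 and from 444 to 674. Apln was above background on no healthy-skin array and on 2 tumour arrays. Cd34 was above background on 2 healthy-skin arrays, Gja5 on 1, and both on no tumour array. Fibroblast markers had a median difference of -0.88, with 7 of 9 lower in tumours and summed signals of 8802 to 23710 and 1350 to 16030. For pericyte and smooth muscle markers the median difference was 0.68, with 8 of 10 higher and summed signals of 565 to 790 and 358 to 1787. Macrophage markers had a median difference of 0.82, with 10 of 12 higher in tumours, where 57.3% of all genes had a higher mean. Their mean was 5.42, 5.67 and 5.37 in healthy skin and 5.36, 7.95 and 5.70 in tumours, and their summed signals ran from 1269 to 1449 and from 1130 to 6885. Tumour array 2, the highest in these markers, was also the highest in Dab2, and their part in the Dab2 difference was not tested. Human transcripts of the injected line may bind mouse probes, and their part in the tumour signals was not tested. The 6 pigment cell markers had summed signals of 68.2 to 76.8 in healthy skin and 49.5 to 154.3 in tumours, with 3 higher and 3 lower. In such captures, fewer cells of a type and less RNA per cell cannot be told apart.

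**Figure D5:**
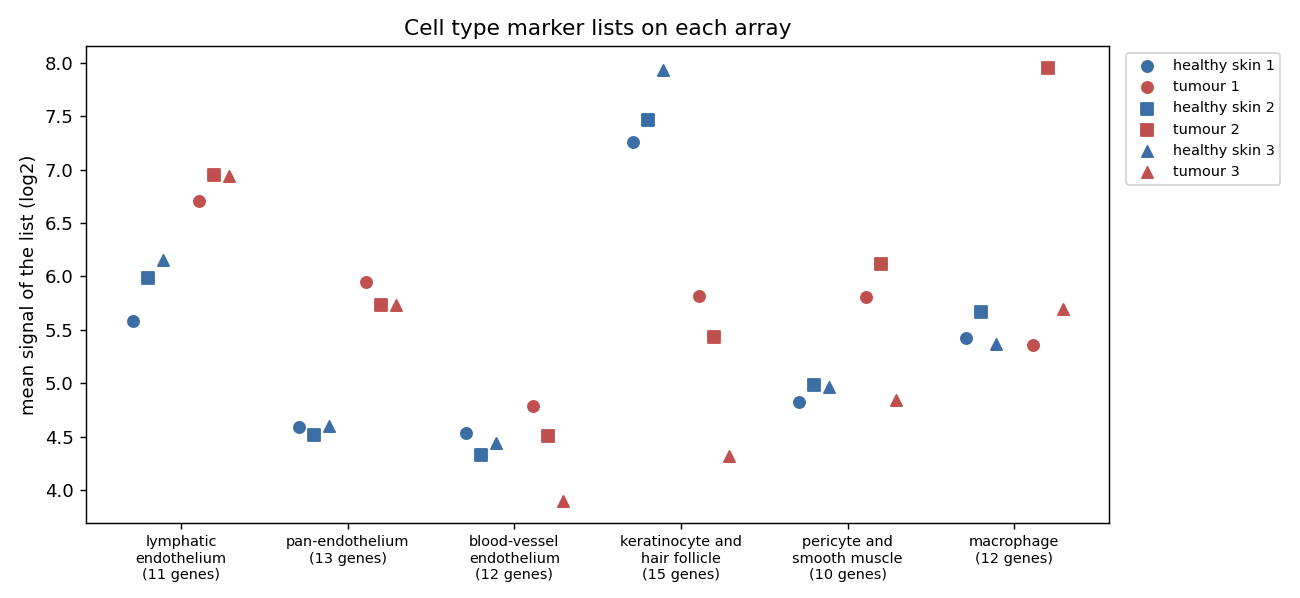
Mean signal (log2, vertical axis) of 6 cell type marker lists (horizontal axis, with the number of genes measured) on each array; blue is healthy skin, red is tumour and the symbol gives the replicate. Pan-endothelial and lymphatic means are higher on all 3 tumour arrays and the keratinocyte mean is lower on all 3.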

How the data were processed

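The authors deposited probe set signals as intensity values on a linear scale for 6 arrays, made with RMA per the submitters' processing notes; its version and the definitions of the probe sets were not given in the sources. RMA equalises arrays, which removes any overall difference in RNA. The log2 of each value was used with no pseudocount, 64 control probe sets were left out, and the other 45037 were tested in R 4.3.3 by limma 3.58.1 (two-sided moderated test from lmFit and eBayes, all 6 arrays, no block, Benjamini-Hochberg adjustment over all probe sets, threshold 0.05). Every column belonged to a sample. The platform annotation gave 1 symbol for 34945 probe sets, several for 932 and none for 9160; a gene stands for its probe set with the highest mean. Promoter windows came from RefSeq. The rule named all members, up to 4 pathway genes per direction by p (Grb2, the fifth higher one, was added after its value was seen), Lyve1, Prox1, Pecam1, Krt10 and the nearest patterns of Ephb4 and Efnb2; markers not above background are named too. Members and lists were chosen with earlier results of these data known. The number of arrays limits the precision. The script was tested on simulated data.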

Additional observations from a re-analysis of the deposited data

How the results depend on the processing

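The direction of Ephb4, Ephb1, Efna1, Epha2 and of Efnb2 on 1419638_at, 1419639_at and 1449549_at held under every alternative in which they were tested. Over all probe sets limma called 2, and 21 with only probe sets above background on at least 3 arrays, 0 when centred on array medians, 0 with a pseudocount of 16, 1 with trend and robust options, 22 with array weights, and 0 to 23 with 1 array left out (23 without tumour replicate 2 and 0 without each of the other arrays). With the replicate number as a block limma called 0, with 4 member probe sets at an unadjusted p under 0.05 in place of 3 (Efnb2 1419639_at had 0.00704) and 8 pathway genes in place of 9. No member had an adjusted p under 0.05 with the block. Over all alternatives the count of pathway genes ran from 6 without tumour replicate 1 to 12 with quantile normalization or array weights. It was 7 with the mean over all probe sets of a gene. Deviations of same-numbered arrays from their group means correlated by 0.0439, 0.101 and -0.0127, and healthy array 1 correlated best with tumour array 3 (0.121), so the numbers were not taken as pairs. Array weights turned Efnb1 1418286_a_at to 0.072, Efna5 1436866_at to 0.21, Efnb2 1449548_at to -0.73 and Ephb3 to -0.26; centring turned Efnb2 1449548_at to -0.023; the mean over probe sets turned Efna5 to 0.50 and Efnb2 to -1.43. The cause was not tested. With 1 array left out, the differences that changed sign ran from -0.52 to 0.26 for Efna5 1436866_at, -0.030 to 0.55 for Efnb1 1451591_a_at, -0.62 to 0.53 for Efnb2 1449548_at, -0.12 to 0.43 for Ephb3, and for Epha4 from -0.11 to 0.42 on 1421929_at, -1.05 to 0.018 on 1421928_at, -0.046 to 0.41 on 1429021_at and -0.24 to 0.20 on 1456863_at. Of the member probe sets, 10 of 20 were not above background on every array, which limits what their differences show.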

Other observations

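Of the markers of arteries and veins in the fixed lists, 6 were named after their values were seen, and all 6 had overlapping values. The blood-vessel list also holds Selp, which was not among the 6 and differed by 0.53 (limma adjusted p = 0.928). In the blood-vessel list of 12 genes the groups did not overlap for Aqp1, Cd34 and Rgcc, against 11.9% of all genes. Cd34 was above background on no tumour array, and Rgcc on 2 of them, with 0.81 on tumour array 3. Aqp1 was higher in tumours by 1.83, and Cd34 and Rgcc differed by -1.43 and -2.32 (limma adjusted p = 0.767, 0.713 and 0.748). Of the arterial genes, Hey1, a Notch target, had 5.78 ± 0.79 in healthy skin and 4.54 ± 0.37 in tumours (SD, n = 3 arrays each). Its log2 difference was -1.24 (limma unadjusted p = 0.0306, adjusted p = 0.728). Sox17 differed by -1.05 (limma adjusted p = 0.868). The connexin genes Gja4, which was counted in the lymphatic list, and Gja5 differed by -0.12 and -0.02. Gja5 was above background on 1 healthy-skin array and on no tumour array. Of the venous genes, Nr2f2, a transcription factor also of lymphatic vessels, had 6.25 ± 1.04 and 7.56 ± 0.55 (log2 difference 1.31, limma adjusted p = 0.799), and Ackr1, a chemokine-binding receptor of venules, differed by -0.40 (limma adjusted p = 0.91).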
